A study of Mus musculus with 2 samples.

Results

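Mitochondrial ribosomal proteins are encoded in the nucleus, made in the cytosol and imported into mitochondria, where they assemble with mitochondrial rRNA into the large and the small subunit of the ribosome that translates the respiratory chain proteins encoded by mitochondrial DNA. Part of them descend from bacterial ribosomal proteins and the others exist only in mitochondria. T cells enlarge their mitochondria and raise mitochondrial protein synthesis after activation, and SIRT1, an NAD-dependent deacetylase, is known to act on the coactivator PGC-1α, which drives mitochondrial gene expression. The genes were chosen by name: every protein-coding gene in RefSeq (GRCm38.p6) whose symbol begins with Mrpl or Mrps and a number, with 6 pseudogenes left out. That gave 78 genes, 49 of the large and 29 of the small subunit by symbol, among 20651 genes with a probe. All 78 were on the array, through 100 probes, and lie on 17 chromosomes, 11 of them on chromosome 11.

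The RNA came from mouse cells labelled TH9, the helper T cell type that makes IL-9. The array labelled knockout is of the genotype SIRT1flox/flox-CD4-Cre, in which Cre under Cd4 control, active also in the thymic precursors of CD8 T cells, recombines the floxed Sirt1 gene, and the other array is of the wild-type. In both groups naive T cells, taken from spleen and lymph nodes by a sort for CD4 and the T cell receptor with high CD62L and low CD44, were cultured for 5 days (5 to 6 in the protocol). The medium held anti-CD3 and anti-CD28 at 2 µg/ml each, human IL-2 at 100 U/ml, IL-4 at 10 ng/ml and TGFβ1 at 2 ng/ml. The age, sex and number of mice are not given in the sources used here. There was 1 array per genotype, so no value below has a replicate check, no test between the genotypes was possible and no p-value is given.

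The label check and the cell makeup bear on every value below. Sirt1 had a signal of 2920 on the array labelled knockout, against 3240 on the wild-type array, which differ by -0.08 (log2, scanner error 0.20), and whether its probe lies in the floxed exons was not tested. Il9, the defining cytokine gene, read 7.36 on the array labelled knockout and 5.48 on the wild-type array, neither of them well above background. T cell markers were present, 9 of 10 on the array and all of these well above background, with a summed signal of 71114 on the array labelled knockout, against 73612 on the wild-type array. All 10 B cell markers were well above background too, summing to 99423 on the array labelled knockout, against 125865 on the wild-type array. Macrophage and dendritic cell markers were so in 8 of 10 (sums of 83867 and 84095, knockout first), and Vsig4 was among the others, on neither array well above background. Most of those sums came from Siglech, with 67500 on the array labelled knockout, against 74900 on the wild-type array, while the knockout-labelled array had the higher value for 7 of the 8 measured markers. CD8 and NK cell markers were so in 7 of 7, summing to 35034 on the array labelled knockout, against 17645 on the wild-type array, and Klra1 alone gave 24700 on the array labelled knockout, against 8790 on the wild-type array. For comparison, 12958 of all 20651 genes with a probe were well above background on both arrays. In such bulk RNA, fewer cells of a type and less RNA per cell cannot be told apart.

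With each array scaled to its 75th percentile, the transcripts of the mitochondrial ribosome had similar levels on both arrays. Of the 78 genes, 77 were well above background on both, against 12958 of all 20651 genes. On the array labelled knockout 38 of these 77 were higher (50.4% among all genes measured) and 39 lower (49.6%). Their median difference was -0.00049 (knockout minus wild-type, log2 of the processed signal after subtracting each array's 75th percentile), and the middle 50% of them lay between -0.11 and 0.17. Only Mrps25 reached 1.5-fold, on the higher side, and 0 of 77 reached it on the lower side, so that 1.30% of the members passed 1.5-fold. Among all 12958 genes well above background on both arrays, 22.9% differed by at least 1.5-fold, with 11.0% higher and 12.0% lower. No member reached 2-fold, which 7.59% of those genes did. The median of all genes was 0.0031. The sign counts depended on the processing: 65 of the 77 members were higher with median centring, which raised all genes alike. With normexp background correction 63 were higher, as set out in the last section.

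The spread of the differences varied with signal, so the members were also set beside genes of like signal. The middle 80% of the members by signal lay between 349 and 6212, and 6238 genes fell in that window. Of these, 15.0% differed by at least 1.5-fold, and the standard deviation of their differences was 0.47, against 0.19 for the 61 members in the window, with 1 past 1.5-fold. By direction 8.48% of the window genes were at least 1.5-fold higher and 6.54% lower, and 4.42% passed 2-fold. Those 61 members had a median of -0.0082 with 30 higher and 31 lower, against a median of 0.05 for the window genes, 56.3% of them higher and 43.7% lower. The scanner software's own error was 0.20 for a typical member, and 55 of 77 members differed by no more than it. A further 10 were higher and 12 lower by more than this error, 22 in all, against 60.6% of all genes (29.9% higher and 30.6% lower) and 55.3% of the window genes (31.8% higher and 23.5% lower). A raw signal that is slightly lower on the array labelled knockout can correspond to no difference, because the 75th percentile was 520 on that array, against 544 on the wild-type array, which adds 0.07 to each log2 difference.

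**Figure D1:**
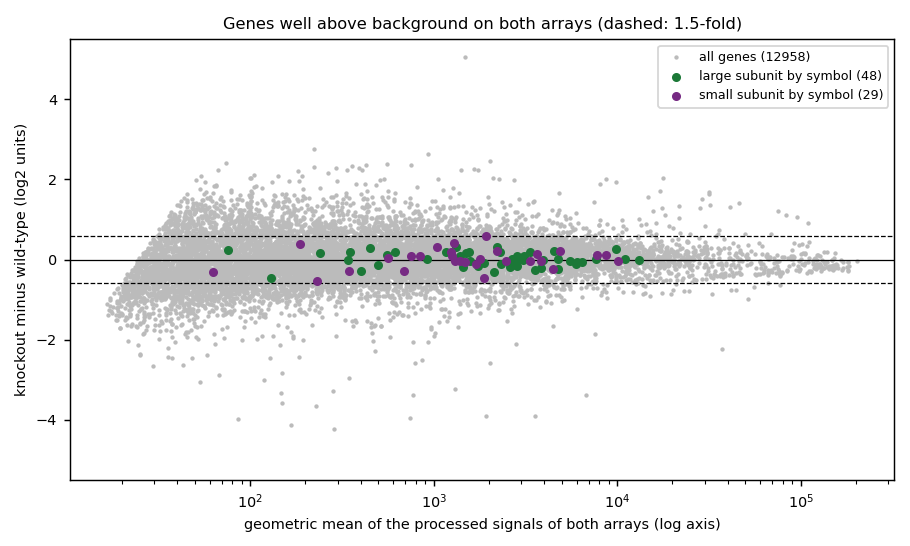
The difference between the arrays (knockout minus wild-type, log2 units) is plotted against the geometric mean of the processed signals for 12958 genes well above background on both arrays, with the 48 large subunit genes in green and the 29 small subunit genes in purple. The members form a narrow band around 0, and only Mrps25 crosses a dashed 1.5-fold line.

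The medians of large and small subunit genes were close. The 48 measured large subunit genes had a median difference of -0.0014, with 23 higher and 25 lower, and the 29 small subunit genes had one of 0.0088, with 15 higher and 14 lower. The large minus small difference of the medians was -0.01, far below the scanner error of a single gene. The small subunit genes ranged from -0.55 to 0.59 with a standard deviation of 0.25, against -0.45 to 0.31 and 0.18 for the large subunit. Their interquartile range was the narrower one, 0.20, against 0.29 for the large subunit, so neither subunit was more spread by both measures. Of the small subunit genes 11 of 29 differed by more than their scanner error (5 higher and 6 lower), and of the large subunit genes 11 of 48 (5 higher and 6 lower). Neither contrast was tested, since genes are not replicates of a genotype. The symbols do not match the structure in every case: Mrps18a and Mrps30 encode proteins that sit in the large subunit, and Mrps36 encodes a protein now assigned to the 2-oxoglutarate dehydrogenase complex. Placed by structure, 50 large subunit genes had a median of -0.0014 and 26 small subunit genes one of 0.02.

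Genes were also split by whether a bacterial counterpart was assigned to them. Among the relatives of bacterial S18, Mrps18c was counted as having one, and Mrps18a and Mrps18b were counted as particular to mitochondria. The 45 measured genes with a bacterial counterpart had a median of 0.0031 and a range of -0.55 to 0.41. The 31 genes counted as particular to mitochondria had a median of -0.00049 and a range of -0.45 to 0.59. Of the 16 small subunit genes with a bacterial counterpart, 4 were higher and 5 lower by more than their scanner error, a share close to the 60.6% of all genes and the 55.3% of window genes, with Mrps6 and Mrps11 at opposite ends. The 10 mitochondria-specific genes of the small subunit had 1 beyond the error on each side, Mrps25 and Mrps27.

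**Figure D2:**
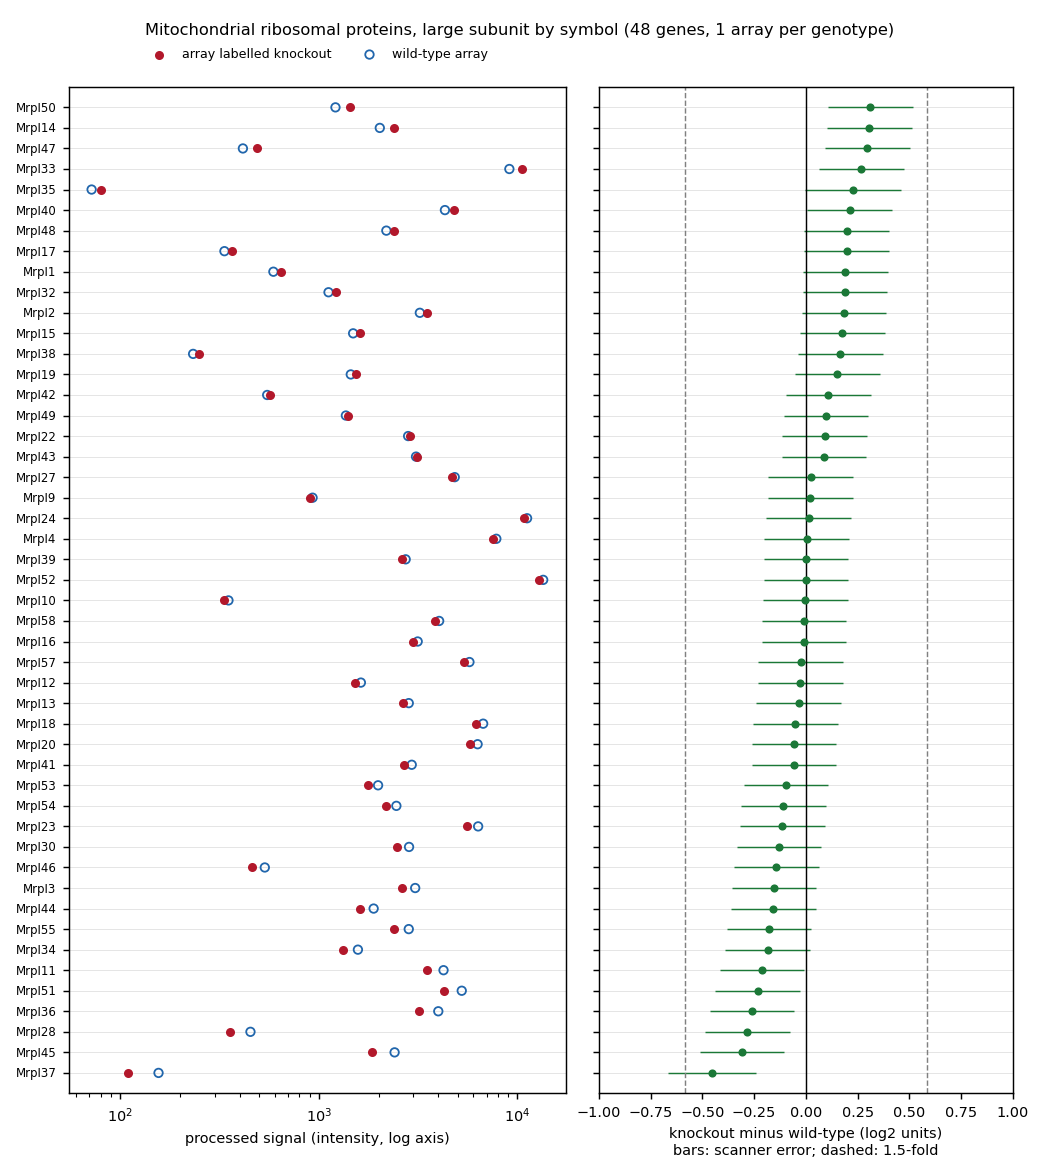
The 48 large subunit genes (by symbol) well above background on both arrays, ordered by difference, with the processed signal on the array labelled knockout (filled red) and on the wild-type array (open blue) at left and the difference in log2 units with its scanner error at right. All lie within the dashed 1.5-fold lines, from Mrpl37 at -0.45 to Mrpl50 at 0.31.

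The large subunit genes with the highest values were Mrpl50, Mrpl14, Mrpl47 and Mrpl33. Mrpl50, specific to mitochondria, had a signal of 1440 on the array labelled knockout, against 1214 on the wild-type array, a difference of 0.31 with a scanner error of 0.20. Mrpl14, the counterpart of bacterial L14 at the face that meets the small subunit, had 2400 on the array labelled knockout, against 2030 on the wild-type array, a difference of 0.31. Mrpl47, which corresponds to bacterial L29 near the exit of the peptide tunnel, had 487 on the array labelled knockout, against 415 on the wild-type array (0.30). These 3 differed by more than their scanner error and by 1.24-fold, 1.24-fold and 1.23-fold. Mrpl33, a small protein with a bacterial counterpart, was among the brighter ones, with 10500 on the array labelled knockout, against 9120 on the wild-type array (0.27).

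At the low end of the large subunit stood Mrpl37, Mrpl45 and Mrpl28. Mrpl37, a mitochondria-specific protein related to Mrps30, was dim, with 109 on the array labelled knockout, against 156 on the wild-type array, a difference of -0.45 with an error of 0.21. Mrpl45 lies at the tunnel exit and holds the ribosome to the inner membrane, and had 1860 on the array labelled knockout, against 2410 on the wild-type array (-0.31). Mrpl28 had 356 on the array labelled knockout, against 453 on the wild-type array (-0.28). The companion of Mrpl37 in sequence, Mrps30, differed by -0.05, well inside its error. Mrpl12, the stalk protein that recruits translation factors and also binds the mitochondrial RNA polymerase, had 1530 on the array labelled knockout, against 1630 on the wild-type array, a difference of -0.03. Mrpl21 alone was well above background on neither array, at 1.97 on the array labelled knockout and 5.03 on the wild-type array, and no fold is given for it. The dimmest gene spot flagged as well above background read 9.76 on the array labelled knockout, against 24.6 on the wild-type array.

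**Figure D3:**
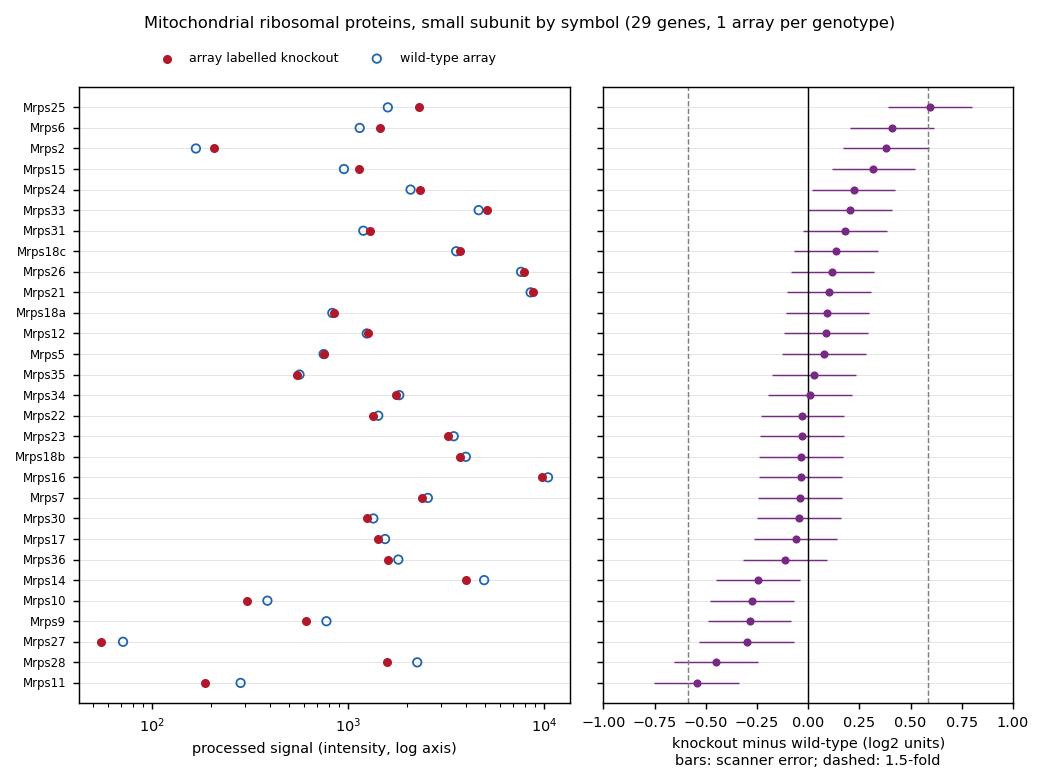
The 29 small subunit genes (by symbol) ordered by difference, with the processed signal on the array labelled knockout (filled red) and on the wild-type array (open blue) at left and the difference in log2 units with its scanner error at right. Mrps25 at 0.59 is the only point past a dashed 1.5-fold line, and Mrps11 at -0.55 is the lowest.

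The small subunit held both extremes of the whole set. Mrps25, a mitochondria-specific protein with a domain shared by Mrpl43 and by the complex I subunit Ndufa2, had 2310 on the array labelled knockout, against 1600 on the wild-type array, a 1.51-fold difference of 0.59 with an error of 0.20. Mrpl43 itself differed by 0.09. Mrps6, the counterpart of bacterial S6, had 1460 on the array labelled knockout, against 1150 on the wild-type array (0.41). Mrps2, the counterpart of bacterial S2, was dimmer, with 209 on the array labelled knockout, against 168 on the wild-type array (0.38). Mrps15, the counterpart of bacterial S15, had 1140 on the array labelled knockout, against 956 on the wild-type array (0.32). Only Mrps25 of these reached 1.5-fold, and a second probe of it gave the opposite sign, as set out below.

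On the other side, Mrps11, the counterpart of bacterial S11 on the platform of the subunit, had 186 on the array labelled knockout, against 284 on the wild-type array, a difference of -0.55 with an error of 0.21. Mrps28, which corresponds to bacterial S1, had 1580 on the array labelled knockout, against 2260 on the wild-type array (-0.45). These lay 1.46-fold and 1.37-fold lower on the array labelled knockout, short of 1.5-fold. Mrps27, a pentatricopeptide repeat protein, was the dimmest measured member, with 55.4 on the array labelled knockout, against 71.4 on the wild-type array (-0.30, error 0.23). Mrps9, the counterpart of bacterial S9, had 610 on the array labelled knockout, against 778 on the wild-type array (-0.29), and Mrps10, a protein of the subunit's head, had 307 on the array labelled knockout, against 389 on the wild-type array (-0.28). Mrps36 had 1600 on the array labelled knockout, against 1810 on the wild-type array (-0.11).

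The 3 vertebrate relatives of bacterial S18 gave small differences by their brightest probes. Mrps18c, the closest in role to the bacterial protein, differed by 0.14 with 3750 on the array labelled knockout, against 3570 on the wild-type array. Mrps18b, also of the small subunit, differed by -0.04 with 3730 on the array labelled knockout, against 4000 on the wild-type array. A dimmer second probe of Mrps18b gave -0.64 (error 0.24), with 44.1 on the array labelled knockout, against 72 on the wild-type array. Mrps18a, which sits in the large subunit, differed by 0.09 with 851 on the array labelled knockout, against 834 on the wild-type array. By its brightest probe each lay inside its scanner error of 0.20.

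For 3 members the array itself carries repeated spots, which measure how precisely a probe was read within an array but not how cultures or animals vary. Mrpl50 read 1390 to 1490 over 10 spots on the array labelled knockout (median 1435), against 1170 to 1240 on the wild-type array (median 1220). Mrpl34, of the large subunit, read 1290 to 1360 on the array labelled knockout (median 1330), against 1510 to 1610 on the wild-type array (median 1585), a difference of -0.18. In both genes the spots of the arrays did not overlap, and the error of the difference from spots alone was 0.013 and 0.011. The share of all probes with repeated spots that show no overlap is not given here, so this is not shown to be particular to these genes. Mrps35, of the small subunit, read 543 to 565 on the array labelled knockout (median 552.5), against 545 to 589 on the wild-type array (median 566.5), so that its spots overlapped, with a difference of 0.03. Differences as small as that of Mrpl34 were thus larger than spot noise, while its scanner error of 0.20 was larger than the difference.

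Probes of the same gene did not always give the same answer. Of the 22 members with 2 probes, 21 had both well above background on both arrays, and the signs of the probes were opposite in 11. In 5 of these, Mrpl4, Mrpl50, Mrps2, Mrps7 and Mrps25, at least 1 probe lay beyond its error. The shares over all genes with 2 probes are not given here, so neither count is shown to be particular to the members. For Mrps25 the brighter probe gave 0.59 and the dimmer one -0.31, with 215 on the array labelled knockout, against 278 on the wild-type array. For Mrps2 the dimmer probe gave -0.83, at 13.9 on the array labelled knockout, against 25.8 on the wild-type array. Mrpl4, which lines the peptide tunnel, was level by its bright probe, with 7510 on the array labelled knockout, against 7840 on the wild-type array (0.0031), while its dim probe gave -0.76. Mrps7, of the subunit's head, went the other way, with -0.04 by the brighter and 0.33 by the dimmer probe.

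**Figure D4:**
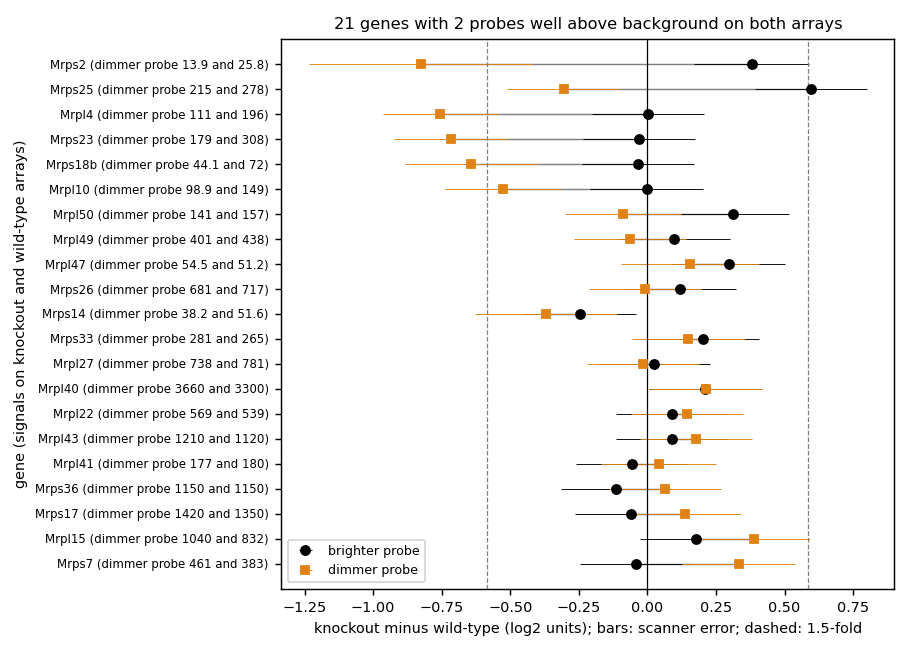
Differences (knockout minus wild-type, log2 units) of the brighter (black circle) and dimmer probe (orange square) of 21 members, with scanner errors, ordered by how far the dimmer probe departs from the brighter. The dimmer probes of Mrps2, Mrpl4, Mrps23 and Mrps18b lie beyond 1.5-fold on the lower side, where their brighter probes do not.

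The departures were mostly to the low side and mostly in dim probes. The dimmer probe was the lower one in 13 of 21 genes, a share not given here for all genes with 2 probes. On the array labelled knockout 4 dimmer probes were at least 1.5-fold lower (those of Mrps2, Mrpl4, Mrps23 and Mrps18b) and 0 at least 1.5-fold higher. Among the 10 dimmer probes with a mean signal under 256 the median was -0.45, and among the other 11 it was 0.14. Dim probes were shifted that way over the whole array: the 6804 probes of all genes under a signal of 256 had a median of -0.19, against 0.03 for the 9613 brighter ones. The share of probes of all genes at least 1.5-fold lower was 49.8% up to a signal of 32 and 28.5% from 32 to 64. It was 20.4% from 64 to 128 and 14.8% from 128 to 256. The 4 dimmer probes named above all had mean signals under 256. After loess scaling, which levels such a trend, the median of the 10 dimmer probes under 256 was -0.35. Of these, 2 stayed at least 1.5-fold lower, those of Mrpl4 and Mrps23.

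Some of these genes share a short stretch of DNA with a neighbour read in the opposite direction, which the choice by name did not use. RefSeq promoter windows (GRCm38.p6, from 250 bases before to 50 after a start) were found for 69 members, and 26 of them had the start of another gene on the opposite strand within 1000 bases upstream. Such members had a median difference of 0.02 (25 measured), against -0.0082 for the other 43. The share of all genes with such a neighbour is not given here, so the count is not shown to be particular to the members. The stretches below lie strictly between the starts of such pairs, read on the strand of the first gene, and are shown for the pair made of 2 members and for the 5 pairs whose partner differed by at least 1.5-fold, a choice made with the values known. Capitals mark every match, on either strand, to CCGGAAG (the core bound by ETS factors), ATGGCGGC (YY1), GCATGCGC (NRF1), GGGCGG (SP factors) or CCAAT (NF-Y), and no marked matches overlap. In order they are chr7:78783090-78783130 (+ strand), chr7:28741822-28741967 (- strand), chr19:45006443-45006557 (- strand), chr13:99344679-99344785 (+ strand), chr16:18876638-18876749 (- strand) and chr17:45686219-45686348 (+ strand).
Mrps11 and Mrpl46: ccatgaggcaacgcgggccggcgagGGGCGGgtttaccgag
Mrps12 and Sars2: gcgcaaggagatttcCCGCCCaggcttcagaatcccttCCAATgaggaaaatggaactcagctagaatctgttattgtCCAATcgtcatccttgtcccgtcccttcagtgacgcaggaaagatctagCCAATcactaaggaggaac
Mrpl43 and Twnk: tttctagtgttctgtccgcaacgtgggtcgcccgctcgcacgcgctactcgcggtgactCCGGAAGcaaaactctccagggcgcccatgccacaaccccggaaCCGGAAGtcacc
Mrps27 and Ptcd2: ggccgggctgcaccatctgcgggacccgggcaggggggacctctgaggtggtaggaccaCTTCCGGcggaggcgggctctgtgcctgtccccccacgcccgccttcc
Mrpl40 and Hira: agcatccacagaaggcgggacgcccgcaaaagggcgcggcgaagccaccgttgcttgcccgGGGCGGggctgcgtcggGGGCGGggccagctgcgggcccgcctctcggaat
Mrpl14 and Tmem63b: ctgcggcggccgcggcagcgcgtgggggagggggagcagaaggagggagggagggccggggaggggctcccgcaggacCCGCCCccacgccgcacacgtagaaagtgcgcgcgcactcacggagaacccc

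The genes on either side of these stretches differed in size and often in sign. Mrps11 and Mrpl46, of the small and the large subunit, start 42 bases apart around a single GGGCGG, and differed by -0.55 and -0.14. Mrps12, a protein of the decoding centre, had 1270 on the array labelled knockout, against 1250 on the wild-type array (0.09), while Sars2, the mitochondrial seryl-tRNA synthetase across 3 CCAAT matches, had 62.8 on the array labelled knockout, against 118 on the wild-type array (-0.84). Mrpl43 differed by 0.09, and Twnk, the mitochondrial DNA helicase across 2 CCGGAAG matches, had 50.7 on the array labelled knockout, against 85.9 on the wild-type array (-0.70). Mrps27 and Ptcd2, a pentatricopeptide repeat protein acting on mitochondrial RNA, were both lower, by -0.30 and -0.69, and Mrpl14 and Tmem63b, an ion channel, were both higher, by 0.31 and 0.72. Mrpl40 differed by 0.21, and Hira, a histone chaperone, by -1.39 at signals of 10.2 on the array labelled knockout and 27.9 on the wild-type array, close to the lowest that count as well above background. Over 21 pairs measured on both sides whose partner is no member, 11 had the same sign. In these pairs 5 partners, 4 of them lower, reached 1.5-fold, a share close to the 22.9% of all genes, and 3 of the 4 lower ones were dim.

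Over the whole promoter windows, ETS and YY1 matches were common among the members. CCGGAAG stood in 25 of 69 member promoters (36.2%), against 17.2% of the 10373 promoters of genes well above background on both arrays and 9.12% of all 27025. ATGGCGGC stood in 12 (17.4%), against 4.85% and 2.38%, and GCATGCGC in 8 (11.6%), against 5.07% and 2.80%. GGGCGG stood in 34 (49.3%, against 60.0% and 35.9%), CCAAT in 27 (39.1%, against 38.9% and 37.9%), CACGTG, the E-box bound by MYC, in 5 (7.25%, against 9.82% and 7.24%) and TATAAA in 4 (5.8%, against 8.39% and 14.2%). The median differences of members with and without a match lay within the scanner error of a single gene. They were -0.0043 with CCGGAAG and -0.0062 without it, 0.02 with ATGGCGGC and -0.0091 without it, 0.06 with GCATGCGC and -0.03 without it, and 0.08 with GGGCGG and -0.0091 without it. Mrps25, the gene with the highest value, has no CCGGAAG or ATGGCGGC in the 150 bases before its start, chr6:92184024-92184173 (- strand), and 1 CCAAT match read on the other strand, in capitals here.
Mrps25: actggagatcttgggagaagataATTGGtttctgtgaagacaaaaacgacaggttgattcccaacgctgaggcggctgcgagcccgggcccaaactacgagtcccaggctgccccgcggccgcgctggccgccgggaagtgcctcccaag

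Mitoribosomal proteins that carry other symbols lay in the same range. Dap3, the GTP-binding protein of the small subunit first known from cell death, differed by -0.06, with 10200 on the array labelled knockout, against 11100 on the wild-type array. Ptcd3, a pentatricopeptide repeat protein, differed by 0.01 and Aurkaip1 by 0.13. Chchd1 had 9950 on the array labelled knockout, against 8560 on the wild-type array (0.28). Gadd45gip1 (CRIF1), of the large subunit, had 1950 on the array labelled knockout, against 1640 on the wild-type array (0.31). None of these 5 reached 1.5-fold.

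Other genes of mitochondrial gene expression were described in 4 lists. The interquartile range of the differences was 0.40 for translation factors, 0.33 for aminoacyl-tRNA synthetases, 0.35 for assembly and rRNA factors and 0.11 for genes of mitochondrial DNA upkeep and transcription, against 0.28 for the ribosomal proteins. The median signals on the array labelled knockout were 1002, 341, 490.5 and 1910 in that order, against 1860 for the ribosomal proteins. These ranges were not matched for signal, with which the spread varied. Among 12 measured translation factors, 6 were higher and 6 lower, with a median of -0.01, 0 at least 1.5-fold higher and 1 lower. Tufm, the elongation factor that brings tRNA to the ribosome, had 1280 on the array labelled knockout, against 1020 on the wild-type array (0.39), while Tsfm, which recycles it, had 91.1 on the array labelled knockout, against 174 on the wild-type array (-0.87). Taco1, needed for translation of the complex IV subunit COX1, differed by 0.31 and Guf1, a ribosomal GTPase, by -0.41. Among 16 mitochondrial aminoacyl-tRNA synthetases, 7 were higher and 9 lower, with a median of -0.10. Vars2 for valine was 1.81-fold higher, with 321 on the array labelled knockout, against 186 on the wild-type array, and Sars2 for serine was 1.80-fold lower. Hars2 for histidine differed by 0.22 and Mars2 for methionine by -0.36. In each of these lists 1 or 2 genes passed 1.5-fold, a smaller share than the 22.9% of all genes.

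Assembly and rRNA factors had the lowest median of the 4 lists. Of 24 measured, the array labelled knockout had 7 higher and 17 lower, with a median of -0.13, and 3 were higher and 9 lower by more than their scanner error. Over all genes 49.6% were lower, and 29.9% were higher and 30.6% lower by more than the error, so that the 12 assembly factors beyond it are a smaller share than the 60.6% of all genes. Mpv17l2, an inner membrane protein of subunit assembly, had 48.9 on the array labelled knockout, against 102 on the wild-type array, 1.99-fold lower, and Rcc1l, which acts on the large subunit, had 124 on the array labelled knockout, against 187 on the wild-type array (-0.53). Ybey, which processes rRNA, had 96.8 on the array labelled knockout, against 58.0 on the wild-type array (0.80), and Rpusd4, a pseudouridine synthase, differed by 0.31. With loess scaling the median was -0.13 too. Among 10 genes of mitochondrial DNA upkeep and transcription, 8 were higher and 2 lower, with a median of 0.05. Lrpprc, which stabilises mitochondrial mRNA, differed by 0.22, Tfam, which packages mitochondrial DNA, by 0.21, Tfb2m, a transcription factor, by -0.06 and Twnk by -0.70.

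**Figure D5:**
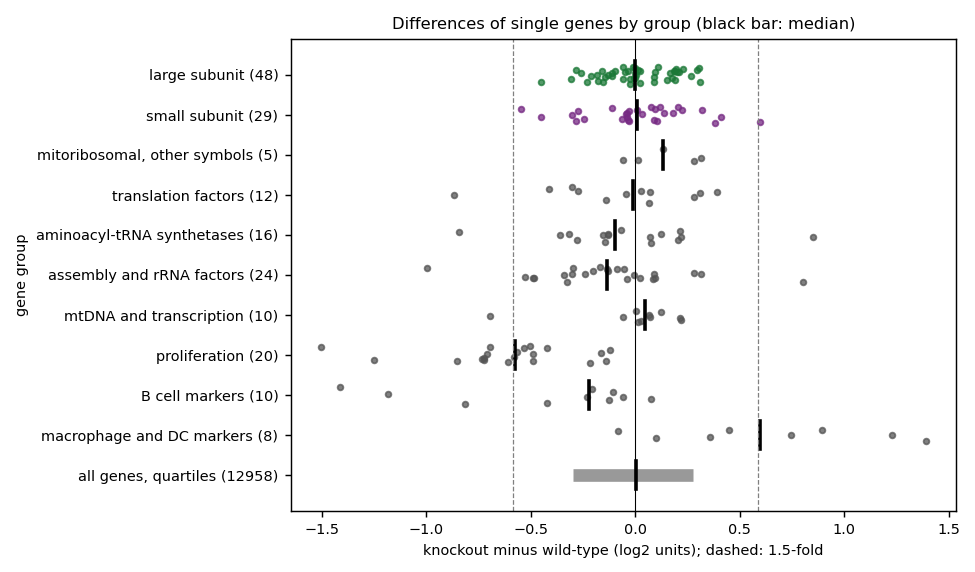
Each point is the difference of a gene (knockout minus wild-type, log2 units) in its group, black bars are group medians, and the grey bar spans the quartiles of all 12958 genes, -0.30 to 0.28. Large and small subunit genes cluster around 0, while proliferation genes lie below and macrophage and dendritic cell markers mostly above.

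Other growth-related groups were set beside the mitochondrial ribosome. Cytosolic ribosomal proteins (90 genes well above background on both arrays) had a median of -0.05, with 35 higher and 55 lower, 0 at least 1.5-fold higher and 4 lower. Respiratory chain and ATP synthase subunits (90 genes) had a median of 0.04, with 49 higher and 41 lower and 1 past 1.5-fold on each side. The interquartile range was 0.21 for the cytosolic ribosomal proteins and 0.32 for the respiratory chain group. It was 0.28 for the mitochondrial ribosomal proteins and 0.58 for all genes. The standard deviations were 0.35, 0.23, 0.21 and 0.56 in the same order. A narrow middle range was thus not particular to the mitochondrial ribosome. Of 20 proliferation genes 20 were lower, 9 of them past 1.5-fold, and the median was -0.57. Mcm7, Pcna and Mcm4, 3 of the 20, lay within their scanner error. With normexp background correction these 3 were higher (0.16, 0.19 and 0.18), while the median of the group was -0.36. Over all genes 49.6% were lower, 11.0% were at least 1.5-fold higher and 12.0% at least 1.5-fold lower. Top2a, the topoisomerase of dividing cells, had 190 on the array labelled knockout, against 563 on the wild-type array, and Ccnb1, cyclin B1, had 704 on the array labelled knockout, against 1750 on the wild-type array. Marker genes of other cell types shifted as well, with a median of -0.22 for B cell markers (Blk at -1.41 and Cd79a at -1.18), 0.60 for macrophage and dendritic cell markers (Mrc1 at 1.39 and Adgre1 at 1.23) and 0.40 for CD8 and NK cell markers. T cell markers had a median of -0.0031, with Cd3e at -1.13 and Zap70 at 0.25. The part of these shifts in the values of the mitochondrial ribosomal proteins was not tested.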

How the data were processed

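The 1-colour (Cy3) Agilent arrays were read with Agilent Feature Extraction, version 11.0.1.1, per the submitters' processing notes and the file headers, both on the same slide and in the same scan. In the deposited scanner files each spot has a processed signal, an intensity with background subtracted, with its error, the median intensity of spot and background, and flags. The deposited value table holds log2 values whose normalization and centring are not given in the sources used here.

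Control spots and spots with outlier flags (138 of 43020 gene spots on the array labelled knockout and 228 on the wild-type array) were left out, and 39411 probes remained. Repeated spots were averaged. The main value was log2 processed signal minus each array's 75th percentile over gene probes, knockout minus wild-type. Probe accessions were matched, without versions, to RefSeq symbols of GRCm38.p6 (27220 probes, 20651 genes). The headers name another build, so the coordinates printed are RefSeq's, for sequences of its promoter table. A gene was represented by its brightest probe, of those flagged well above background on 1 or both arrays, and counted where that probe was so on both. The scanner error of a difference combines the errors of both arrays. Pseudogenes of the family were left out, and cross-hybridisation was not examined.

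Members named are all those at least 1.5-fold apart, the 8 highest, the 8 lowest, those not above background, those whose probes disagree, the Mrps18 relatives, Mrpl12 and Mrps36, and others were added after their values were seen. From each list of mitochondrial gene expression the 2 highest and 2 lowest are named. Members and lists were chosen with earlier results of these data known. Median centring, quantile normalization, loess, normexp background correction (offset 50, on median intensities), the mean over probes, the deposited log2 values, other filters, subunit placement and a 2-fold threshold were tried. Gene tables and counts were tested on simulated data. Python 3.11.15, pandas 2.3.3, R 4.3.3 and limma 3.58.1 were used. The number of arrays, 1 per genotype, limits the precision.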

Additional observations from a re-analysis of the deposited data

How the results depend on the processing

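No paired analysis was possible because each genotype has 1 array. The medians of all members, of the large and of the small subunit kept within 0.02 of their values with quantile normalization, loess and the deposited log2 values, and the large minus small difference ranged from -0.04 to 0.03 over all settings. Median centring raised all genes by 0.19, and with it 65 of 77 members were higher and 2 (Mrps25 and Mrps6) were at least 1.5-fold higher. Relative to the median of all genes the members' median stayed at -0.0036. With normexp the members' median was 0.19, that of the large subunit 0.21, 63 members were higher and 2 at least 1.5-fold lower (Mrps27 and Mrpl37). With normexp the median of all genes was -0.06, so the members lay 0.25 above it, while genes in the members' signal window had a median of 0.20. With the mean over probes 0 members were at least 1.5-fold higher, Mrps25 having 0.14. With members counted whatever their background flag, 1 (Mrpl21) was at least 1.5-fold lower. With a 2-fold threshold 0 members were higher. Of 23 named members, 11 moved by more than their scanner error with normexp, 4 with the mean over probes (Mrpl4, Mrps2, Mrps18b and Mrps25) and 0 with each other scaling or the deposited values. The deposited table's differences lay within 0.17 of the scanner's for all 77 members. The causes were not tested. Mrps2 changed sign, from 0.38 to -0.10 with normexp and to -0.22 with the mean over probes. Low signals limit what can be said of Mrps27 (55.4 and 71.4, knockout first), Mrpl35 (80.3 and 71.8), Mrpl37 (109 and 156), Mrps2 (209 and 168) and the dimmer probes. The lowest signals well above background were 9.76 on the array labelled knockout and 24.6 on the wild-type array.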
